A study of Mus musculus with 16 samples.

Results

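The livers described here came from wild-type mice given the synthetic PPARα agonist Wy14643, compared with livers of wild-type mice on ordinary food. The members were chosen by group label alone, as all WT_Wy arrays (4) and all WT_control arrays (4), so that 8 of the 16 arrays of the series form the comparison. Every probe set other than the manufacturer's controls entered it, 45037 in all, of which 18193 genes were each represented by the brightest probe set. Liver RNA was hybridized to Affymetrix mouse genome arrays, with 1 array per mouse. Both groups were male 129S1/SvImJ mice of 12 to 20 weeks, carried no engineered allele, and differed in the food of 5 days, either plain or with 0.1% Wy14643 by weight. The other 8 arrays came from male PPARα-null mice on the 129S4/SvJae background, of the same age range. Of these, 4 were on plain food (KO_control) and 4 on the same Wy14643 food (KO_Wy). They show where the wild-type response differs. They also enter the fitted spread of each probe set and the choice of the brightest probe set. Wild type and null are thus of different substrains, and the null mice lack the receptor in every tissue from birth.

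PPARα is a nuclear receptor that pairs with RXR on DNA elements made of repeated hexamers, and it is the main fatty acid sensing receptor of hepatocytes. Fatty acids and the fibrate-like drug Wy14643 activate it. In rodent liver it is known for raising peroxisomal, mitochondrial and microsomal fatty acid oxidation, for enlarging the peroxisome population, and for hepatocyte growth during prolonged treatment.

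Values are log2 intensities, and a difference is WT_Wy minus WT_control unless stated otherwise. A probe set or gene was called when limma gave an adjusted p under 0.01 and a fold over 1.5, and the words rose and fell are kept for called genes. Where a group mean did not exceed 2.24, the largest median of any array, the level there was not distinguishable from background and the difference is given as a bound ("at least").

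One library stood apart before any comparison was made. WT_Wy replicate 3 carried RNA of the exocrine pancreas, with the chymotrypsinogen Ctrb1 at 8.45, trypsin Prss2 at 8.49, elastase Cela2a at 8.67 and colipase Clps at 7.90, while no other WT_Wy array exceeded 2.47 for any of these genes. The summed linear level of 6 acinar markers was 1768 in this array, 20.0 to 20.6 in the other 3 of its group and 21.1 to 25.5 on control food. In this array 17 genes lay more than 4-fold above the highest of the other 3, against 1 or 2 genes for each of the other WT_Wy arrays. None of the acinar markers was called. Without the array 1375 genes rose and 1171 fell, of which 1307 and 1113 were also called with it, compared with 1405 and 1226 for all 8 arrays.

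The tissue markers otherwise fitted liver, with Alb the brightest of 11 hepatocyte markers. These markers summed to 66345 to 68634 on Wy14643 and to 87310 to 93002 on control food, and 4 of the 11 fell, among them the plasma proteins and enzymes Ahsg (-1.18) and Cps1 (-0.97). Markers of the resident macrophages, the Kupffer cells, fell in 11 of 15, with sums of 933 to 1197 against 1629 to 1891. Of 14 stellate cell markers 6 fell (2017 to 2220 against 3089 to 3386), and of 16 sinusoidal endothelial markers 3 fell and 1, Lyve1, rose by 2.63. Without WT_Wy replicate 3 the fallen endothelial markers were 1, as also without WT_Wy replicate 2 or WT_control replicate 4. Beside these marker counts, 7.72% of all genes rose and 6.74% fell. Among genes whose higher group mean was 6 to 8, the shares were 14.0% and 13.6%. None of the markers of T and NK cells (9 measured), B cells (6), adipocytes (4) or muscle (8) was called. Of these, 7, 3, 4 and 5 were at background in both groups, where no difference could be measured. None of 7 cholangiocyte markers was called, with 4 at background, although their sums were 316 to 361 against 415 to 485. Fewer cells of a type and less RNA per cell cannot be told apart in whole tissue. The ratio of 3′ to 5′ control probe sets, a sign of RNA integrity, averaged 1.20 and 1.18 (log2) for Actb in the treated and control groups (exact permutation p = 0.83) and -0.01 and 0.05 for Gapdh (exact permutation p = 0.2). Across 12946 probe sets the arrays of a group correlated with r of 0.982 to 0.991, and arrays of different groups with 0.884 to 0.899.

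**Figure D1:**
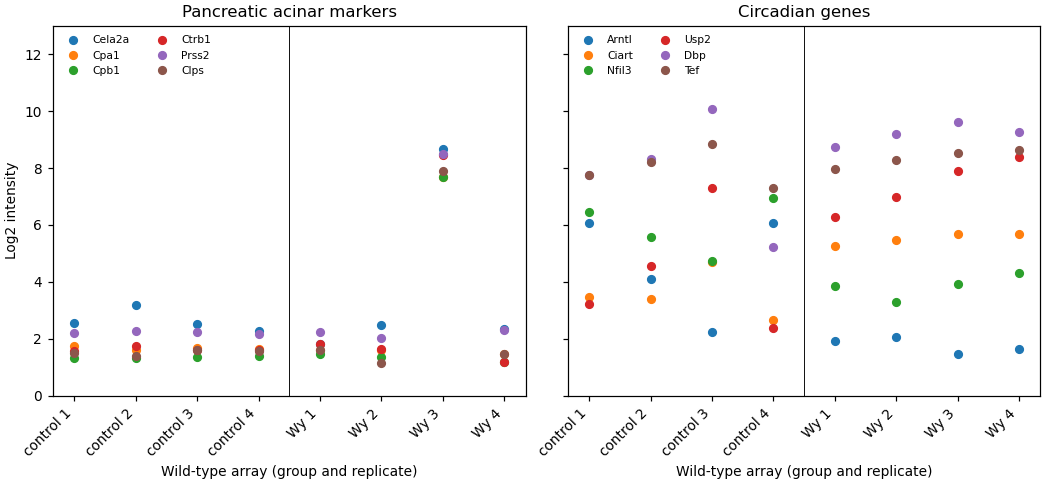
Log2 intensity (vertical axis) of 6 pancreatic acinar markers (left) and 6 circadian genes (right) in each of the 8 wild-type arrays (horizontal axis, 1 point per array). All 6 acinar markers lay above 7 in WT_Wy replicate 3 alone, and among the control arrays WT_control replicate 3 had the lowest Arntl and Nfil3 and the highest Ciart, Usp2, Dbp and Tef.

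Wy14643 changed the expression of a large part of the liver transcriptome in wild-type mice. Of 45037 probe sets 2630 rose (5.84%) and 2171 fell (4.82%), and in 2557 and 2115 of these no array of either group overlapped the other, which held for 10189 (22.6%) of all probe sets tested. At the level of genes 1405 rose (7.72%) and 1226 fell (6.74%), and the median difference over all 18193 genes was -0.03. The excess of increases depended on how level was measured. Above a mean of 4 over all 16 arrays there were 1715 probe sets up and 1920 down, and above 6 there were 1082 and 1335. That mean takes in 4 WT_Wy arrays of 16, so genes bright only there can drop out. By the higher of the wild-type group means, 14.2% of genes rose and 11.3% fell at 4 to 6. The shares were 14.0% and 13.6% at 6 to 8, and 15.5% and 14.5% at 8 to 10. Beyond 4-fold 262 genes rose and 141 fell. Rising and falling genes started from different levels. The genes that rose had a median control level of 5.34 and reached 6.85, and 183 of them were at background on control food. The genes that fell had a median control level of 7.40 and ended at 6.28, and 226 of them, against 73 of the rising genes, had a control level above 10. Among the 198 genes whose higher group mean exceeded 12, 27.8% fell and 19.2% rose. On the same measure the call rates climbed with brightness, from 2.11% up and 0.907% down below 4 to 20.6% and 24.7% at 10 to 12.

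**Figure D2:**
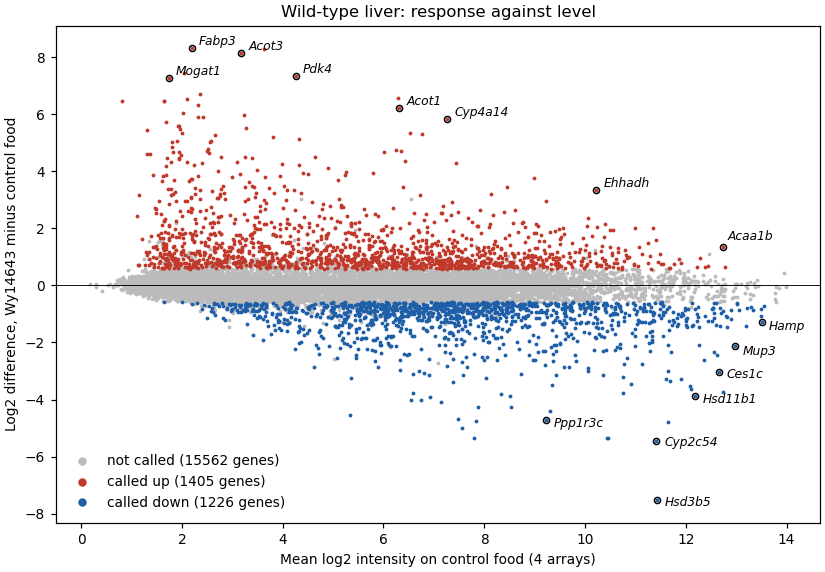
Log2 difference between Wy14643 and control food (vertical axis) against the mean log2 intensity on control food (horizontal axis) for 18193 genes, 1 point per gene, with called genes in red (1405 up) and blue (1226 down). The largest increases began near background on the left and the largest decreases among bright genes on the right.

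The 10 clearest increases, those with the largest moderated t of limma among called genes that reached a level of 6 and whose arrays did not overlap, were mostly genes that control liver scarcely expressed. Mogat1, which acylates monoacylglycerol on the way to triglyceride, measured 1.58, 1.92, 1.72 and 1.72 on control food and 9.05, 9.07, 9.12 and 8.82 on Wy14643. The treated arrays differed by no more than 0.30 and lay far above every control array, a difference of at least 6.78 (adjusted p = 2.71e-17). Fabp3, the heart-type fatty acid binding protein, measured 2.27, 2.26, 2.16 and 2.07 and then 10.37, 10.70, 10.20 and 10.72, at least 8.26 higher. The fatty acid transport protein Slc27a1 rose by at least 7.25. The rest of the 10 lay outside textbook fatty acid metabolism. They were Amn, a receptor component for vitamin B12 uptake (at least 5.03), the phosphomannomutase Pmm1 (at least 5.30), the proton channel Otop1 (at least 5.85), the keratin Krt23 (5.97 ± 0.13 SE), the laminin chain Lamb3 (6.71 ± 0.15), the zinc importer Slc39a5 (at least 5.88) and Bhlhb9 (at least 6.41). In null liver the differences of these 10 genes between the foods ran from -0.44 to 0.27.

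The 10 clearest decreases by the same rule were largely enzymes and plasma proteins that control liver made in quantity. Ces1c, a secreted carboxylesterase, measured 12.63, 12.71, 12.67 and 12.65 on control food and 9.66, 9.56, 9.69 and 9.55 on Wy14643, so that it fell by 3.05 ± 0.07 (adjusted p = 7.16e-15). Hsd11b1, which regenerates active glucocorticoid from its inert form, measured 12.19, 12.21, 12.23 and 12.14 and then 8.48, 8.21, 8.47 and 8.17. The cytochrome Cyp2c54 measured 11.46, 11.59, 11.49 and 11.13 and then 6.43, 5.80, 5.97 and 5.70. All 3 lay above 11 on every control array and below 10 on every treated one. The others among the 10 were the aldehyde oxidase Aox3 (-4.80), the complement genes C1s1 (-3.13) and C8a (-3.26), the cytochrome Cyp2c70 (-3.73), the retinol dehydrogenase Rdh5 (-4.08), the GPI-anchor cleaving phospholipase Gpld1 (-2.25) and BC052688 (-3.51).

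Promoter sequence is shown for increases that carry a near match to the PPARα/RXR element, since members that rose together can be set side by side there. RefSeq promoter windows of build GRCm38.p6, 250 bases before to 50 after a gene's start, were found for 14368 of the 18193 genes. They were searched on both strands for 2 copies of the hexamer AGGTCA, 6 bases each, with 1 free base between them. Allowing 2 mismatches, 3.96% of all genes held a match, against 4.24% of the 1132 rising genes with a window and 5.6% of the 965 falling ones. At no more than 1 mismatch the shares were 0.557%, 0.442% and 0.933%. The rising genes thus held the match at about the share of all genes in this window. Of the increases named by rule, the 4 with the fewest mismatches (2 each) and the largest rise follow, as the 250 bases before the start on the gene's strand, with the matching 13 bases in capitals.
Mogat1 (chr1:78510810-78511059, plus strand): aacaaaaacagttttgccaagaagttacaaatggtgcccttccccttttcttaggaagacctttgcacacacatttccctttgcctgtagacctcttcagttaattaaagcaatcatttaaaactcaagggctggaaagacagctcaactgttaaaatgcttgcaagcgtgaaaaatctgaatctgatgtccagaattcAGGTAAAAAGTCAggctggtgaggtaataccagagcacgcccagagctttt
Slc39a5 (chr10:128400467-128400716, minus strand): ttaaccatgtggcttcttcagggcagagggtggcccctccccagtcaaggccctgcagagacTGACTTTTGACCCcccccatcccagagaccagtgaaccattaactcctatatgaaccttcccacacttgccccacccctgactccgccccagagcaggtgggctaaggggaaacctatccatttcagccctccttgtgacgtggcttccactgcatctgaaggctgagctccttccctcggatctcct
Blvrb (chr7:27452168-27452417, plus strand): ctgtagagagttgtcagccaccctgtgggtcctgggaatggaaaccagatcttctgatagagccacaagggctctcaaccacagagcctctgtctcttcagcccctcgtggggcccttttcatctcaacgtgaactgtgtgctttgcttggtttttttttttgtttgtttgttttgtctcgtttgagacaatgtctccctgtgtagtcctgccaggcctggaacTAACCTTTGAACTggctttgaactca
Aldh9a1 (chr1:167349741-167349990, plus strand): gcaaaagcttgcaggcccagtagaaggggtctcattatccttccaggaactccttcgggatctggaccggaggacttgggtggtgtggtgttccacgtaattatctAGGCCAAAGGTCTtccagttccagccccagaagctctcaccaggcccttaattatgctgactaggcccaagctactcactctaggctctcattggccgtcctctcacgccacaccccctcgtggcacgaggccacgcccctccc

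The match of Mogat1, which rose by at least 6.78, lies 51 to 39 bases before the start and reads along the gene. In Slc39a5 (at least 5.88) it lies 188 to 176 bases before the start, on the opposite strand. In Blvrb, the biliverdin reductase that rose by 1.17, it lies 26 to 14 bases before the start, also on the opposite strand, and in Aldh9a1 (0.62) 144 to 132 bases before it, along the gene. A match of letters is no evidence that the receptor binds there, and elements farther from the start were not searched.

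Some of the most abundant transcripts changed too. Acaa1b, a peroxisomal thiolase, reached the highest level of any called gene with a fold over 2, with 12.90, 12.77, 12.80 and 12.49 before and 14.10, 14.16, 14.07 and 14.01 after (1.35 ± 0.11). Ehhadh and Cyp4a14, described further on, came next with Retsat, a retinol saturase, at 13.38, the peroxisomal transporter Abcd3 13.01 and the droplet-associated dehydrogenase Hsd17b11 12.99. In the other direction stood Hamp, encoding the iron hormone hepcidin, the brightest on control food of the genes that fell more than 2-fold, at 13.52. Its control arrays measured 13.58, 13.61, 13.58 and 13.33 and its treated arrays 12.22, 11.89, 12.31 and 12.59. Bhmt and Gnmt, of methyl group metabolism, fell by 1.09 and 1.43, the fetuin Ahsg by 1.18, the male-biased cytochrome Cyp2d9 by 1.11 and the major urinary protein Mup3 by 2.13. The Mup probe set may also bind transcripts of close relatives, since this family is nearly identical in sequence.

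**Figure D3:**
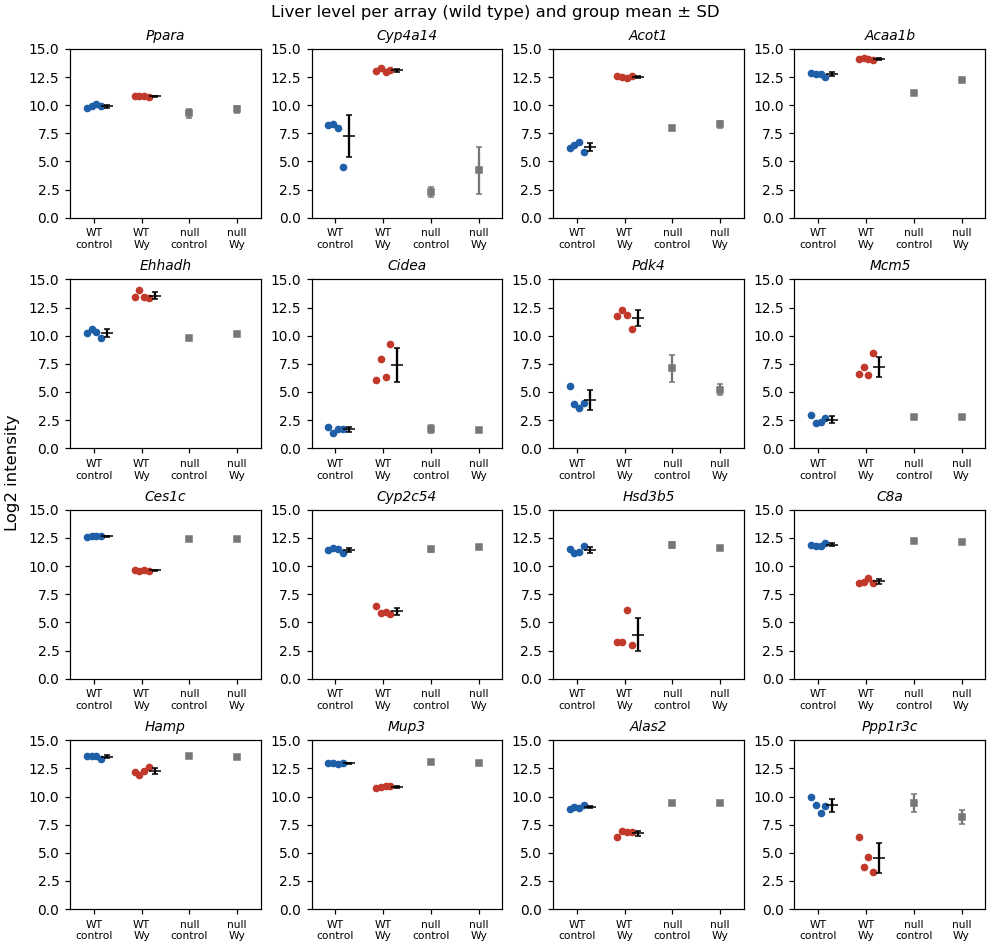
Log2 intensity (vertical axis, 0 to 15) of 16 genes, with 1 point per wild-type array in the control (blue) and Wy14643 (red) groups, a black bar at the mean with its SD (4 arrays), and grey squares for the mean and SD of 4 PPARα-null arrays per group. Wild-type points of the 2 groups were separate in every panel, whereas the null means moved little between the foods for most genes.

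Ppara itself measured 9.77, 9.89, 10.07 and 9.96 on control food and 10.80, 10.81, 10.82 and 10.70 on Wy14643, an increase of 0.86 ± 0.17 (adjusted p = 0.000974). All 3 of its probe sets were called, and the groups were separate. Ppara was the only 1 of 16 genes of the receptor, its RXR partners and its coregulators to be called. The RXR gene Rxra gave -0.42 and the coactivator Ppargc1a -0.34.

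Fatty acid oxidation genes rose as a group in both organelles. Of 22 mitochondrial genes 20 rose and none fell, with a median difference of 1.44 beside -0.03 for all genes. The largest were the carnitine transporter Slc22a5 (4.69) and carnitine acetyltransferase Crat (4.37), and the set ran through the carnitine palmitoyltransferases Cpt2 (1.86) and Cpt1a (1.14), the acyl-CoA dehydrogenases Acadl (1.95), Acadm (1.5), Acadvl (1.14) and Acads (0.64), and the trifunctional subunits Hadha (1.73) and Hadhb (1.70). Only Etfa (0.14) and Echs1 (-0.03) were not called. Among the dehydrogenases called, the one for long chains rose the most and that for short chains the least. Of 20 peroxisomal genes 12 rose and 1, Pecr, fell (median 1.12). Ehhadh, the bifunctional enzyme, measured 10.25, 10.56, 10.29 and 9.75 before and 13.43, 14.02, 13.43 and 13.33 after. Every treated array lay above 13, and the transporter Abcd2 was higher by at least 5.81. Catalase (Cat, 0.04) and the sterol carrier Scp2 (-0.09) were not called. Of 15 peroxins and peroxisomal membrane proteins 8 rose, led by the division factor Pex11a (3.46) and the membrane protein chaperone Pex19 (1.67), and Pxmp2 fell by 0.89.

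Acyl-CoA thioesterases, which release free fatty acid from coenzyme A, rose in 11 of 15 genes and fell in 2 (median 1.77). Acot3 measured 2.92, 3.21, 3.66 and 2.87 before and 11.50, 11.27, 11.18 and 11.31 after (8.15 ± 0.27), and Acot1 rose from 6.30 to 12.52. Acot4 (5.13), Acot2 (3.92) and Acot5 (at least 2.09) followed, and the bile acid conjugating Baat (-1.11) and Acot11 (-1.52) went the other way. Close paralogs in this family can share probes, so the split between them is uncertain. Of 19 Cyp4 genes listed, the fatty acid ω-hydroxylases, 12 were measured. Cyp4a10 was not, since no probe set was assigned to it alone. Of the 12, Cyp4a31 (8.29) and Cyp4a14 rose and Cyp4f14 (-5.36), Cyp4v3 (-0.90) and Cyp4f13 (-0.81) fell. Whether the Cyp4a31 probe set also binds transcripts of close relatives was not tested. Cyp4a14 measured 8.22, 8.35, 7.95 and 4.53 on control food and 13.04, 13.27, 12.98 and 13.09 on Wy14643. The 4 treated arrays were tight while 1 control array stood far below the others, and the difference of 5.83 became 4.92 without WT_control replicate 4. The neighbouring step of coenzyme A supply followed, with 7 of 14 genes up and 2 down, among them the pantetheinase Vnn1 (5.35) and the synthesis enzymes Ppcs (1.86) and Pank1 (1.13). Acyl-CoA synthetases and binding proteins rose in 9 of 18, led by Acsl3 (2.00) and Acsf2 (1.83), and Acsm1 fell by 1.22.

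Genes for taking up and storing fat rose together with those for burning it. Of 15 fatty acid uptake and binding genes 9 rose and 2 fell (median 1.84). Fabp4 gave 6.55, the translocase Cd36 5.32, the lipoprotein lipase Lpl 4.71 and the very low density lipoprotein receptor Vldlr 3.94, whereas the liver forms Fabp1 (0.42, not called) and Slc27a5 (-0.83) did not follow. Lipid droplet proteins and lipases rose in 16 of 21 (median 2.05), the list with the largest median of those measured. Cidec rose from 2.31 to 8.64 and Cidea by at least 5.15, both droplet fusion proteins known from adipose tissue, and Cideb, the hepatic member of that family, fell by 0.64. The droplet coats Plin2 (2.15), Plin4 (at least 1.58) and Plin5 (2.37) rose together with the lipases Pnpla2 (3.18), Mgll (2.96) and Lipe (2.2) and with G0s2 (2.18), an inhibitor of Pnpla2. Of 20 genes of triglyceride synthesis and glycerol 11 rose and none fell, with the glycerol channel Aqp3 at 3.20 and the lipin Lpin2 at 1.76. The transferase Dgat1 rose by 0.92 (0.38 and not called as the mean of its probe sets) and Dgat2 gave -0.03.

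Fatty acid synthesis genes divided. Of 13 measured, 3 rose and 4 fell (median -0.26). Acacb, the mitochondrial acetyl-CoA carboxylase that makes the inhibitor of carnitine palmitoyltransferase, rose by 3.86, the malic enzyme Me1 by 1.95 and Acaca by 1.16. Acly (-1.32), the regulator Mlxipl (-1.04), its partner Mlx (-0.73) and Thrsp (-2.29) fell, and the synthase Fasn gave 0.17. Desaturases and elongases rose in 7 of 19, with Elovl7 at least 4.33 higher and the Δ6-desaturase Fads2 at 1.8, and Fads6 fell by 1.24. Scd1 measured 12.31, 12.62, 12.69 and 12.23 before and 13.65, 13.48, 13.60 and 13.52 after. The groups were separate but the adjusted p of Scd1 was 0.0127, short of the threshold used. It was called above a mean level of 4 (adjusted p = 0.00776) or 6, after quantile normalization, in the 8 wild-type arrays alone, with the replicate block (adjusted p = 0.00944) and as the mean of its probe sets (1.77), and it stayed uncalled whichever wild-type array was left out. Cholesterol synthesis rose in 4 of 17, with Hmgcs1 at 1.92, and this count depended on single arrays. It was 8 without WT_Wy replicate 3, and 2 without WT_Wy replicate 1, WT_Wy replicate 2 or WT_control replicate 4.

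Of the mitochondrial genes outside fatty acid oxidation, Pdk4, the kinase that shuts pyruvate dehydrogenase, measured 5.56, 3.95, 3.54 and 3.98 on control food and 11.71, 12.25, 11.81 and 10.59 on Wy14643 (7.34 ± 0.51). Of the 13 genes of that complex and its regulators 3 rose, or 1 without WT_Wy replicate 3, WT_control replicate 1 or WT_control replicate 2. The tricarboxylic acid cycle rose in 4 of 20 (median 0.32), led by Mdh2 (0.94). Respiratory chain genes rose in 6 of 59 (median 0.25), with Cox6b2 (2.63) and the muscle form Cox7a1 (1.83) ahead of Ndufb3 (1.0) and Cycs (0.80). Mitochondrial ribosomal proteins rose in 6 of 71 and fell in 1 (median 0.27). Over all genes 7.72% rose and 6.74% fell, but most members of these lists were bright. The higher group mean exceeded 6 in 54 of the 59 and in 70 of the 71. Among all genes at 6 to 8 on that measure, 14.0% rose and 13.6% fell. Of 39 Slc25 carriers 9 rose and 4 fell. The largest was the heart and muscle adenine nucleotide carrier Slc25a4 (4.13), and its liver relative Slc25a5 gave 0.22. Of 17 genes known from brown fat and muscle 9 rose and none fell, while Ucp1 (-0.06) and its regulator Prdm16 (0.05) were not called. Of 7 ketone body genes the exporters Slc16a1 (1.83) and Slc16a7 (0.94, not called without WT_Wy replicate 4 or WT_control replicate 4) and the thiolase Acat1 (0.75) rose, and the cytosolic Bdh2 fell by 3.38.

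Carbohydrate genes changed at a few steps. Of 40 measured, 4 rose and 9 fell, where 7.72% and 6.74% of all genes did. The muscle form of fructose bisphosphatase, Fbp2, measured 2.21, 2.46, 1.98 and 1.39 before and 7.35, 7.39, 7.40 and 7.24 after, at least 5.11 higher, and the liver form Fbp1 gave -0.38. The regulatory subunits of glycogen metabolism moved oppositely. Ppp1r3g was higher by at least 4.52, and Ppp1r3b (-3.15) and Ppp1r3c (-4.71) fell. Ppp1r3c measured 9.94, 9.24, 8.57 and 9.16 and then 6.37, 3.76, 4.61 and 3.34, and its difference was -5.33 without WT_Wy replicate 1. Pyruvate kinase Pklr fell by 3.87, the glucose transporter Slc2a2 by 1.21 and the glycogen phosphorylase Pygl by 1.43. The gluconeogenic Pck1 (-0.38) and G6pc (-0.35) were not called.

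Amino acid catabolism and the urea cycle fell in 21 of 52 genes and rose in 2 (median -0.55). Histidine ammonia lyase Hal (-2.74), proline dehydrogenase Prodh (-2.43), ornithine transcarbamylase Otc (-2.35) and argininosuccinate lyase Asl (-1.64) were among them. Csad, which makes the taurine precursor, rose by 2.57 while Cdo1, which feeds it, fell by 1.41. Phosphatidylcholine and methyl donor genes split, 7 up and 8 down of 26. The transfer protein Pctp (3.22) and the choline kinase Chkb (2.47) rose, and the transsulfuration enzymes Cbs (-2.29) and Cth (-1.44) and the methyltransferase Pemt (-0.90) fell. Serine synthesis and ATF4 target genes rose in 4 of 27 and fell in 2, where 7.72% and 6.74% of all genes did. Atf4 itself fell by 1.02, and the falls were 1 without WT_Wy replicate 1 or 2 or WT_control replicate 2 or 3.

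**Figure D4:**
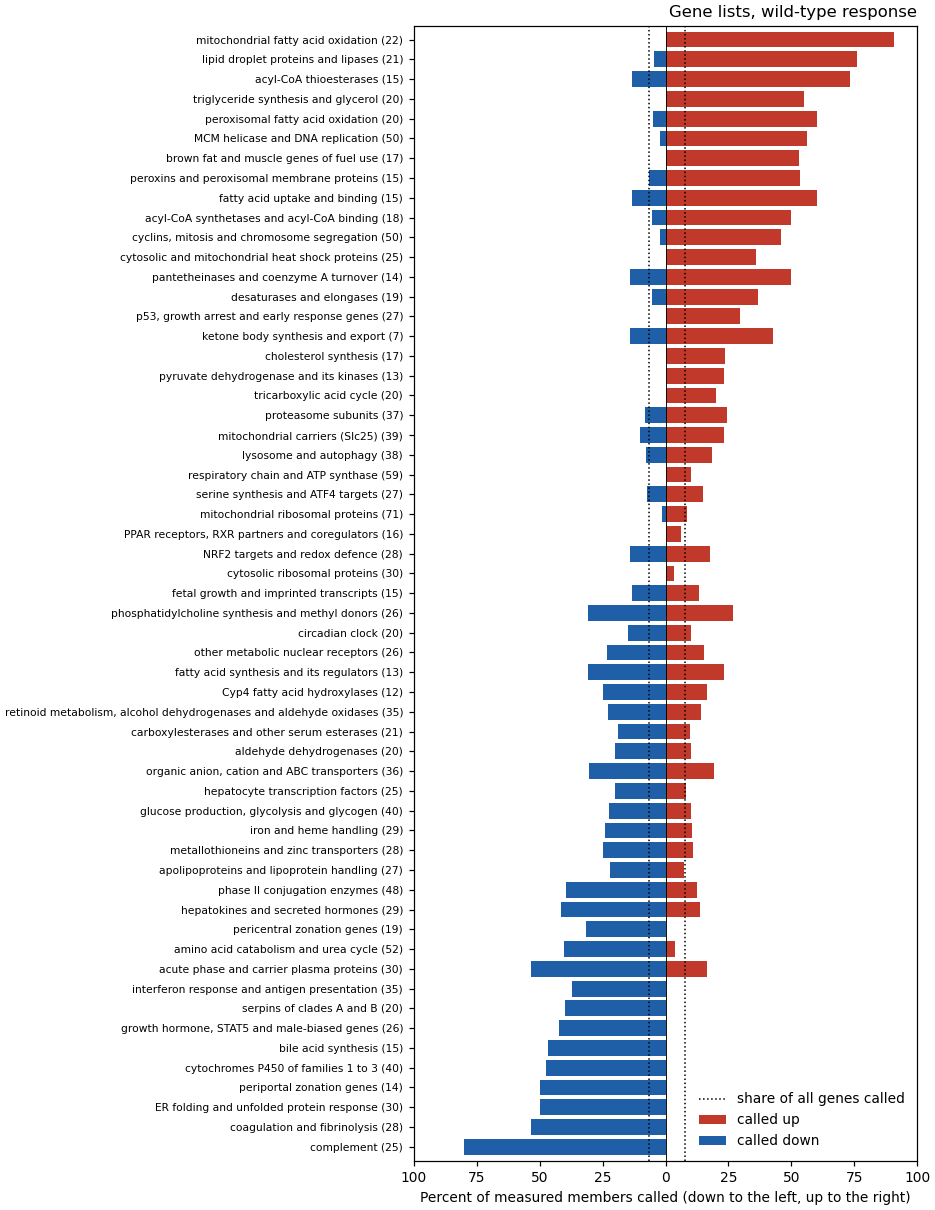
Percent of the measured members of 57 gene lists (horizontal axis) called up (red, to the right) or down (blue, to the left), with the number measured in brackets and dotted lines at the shares of all genes, 7.72% and 6.74%. Mitochondrial fatty acid oxidation, with 20 of 22 genes up, heads the plot, and complement, with 20 of 25 down, ends it.

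Many plasma protein genes fell. Of 25 complement genes 20 fell and none rose (median -1.09). C8a measured 11.89, 11.81, 11.82 and 12.08 on control food and 8.52, 8.55, 8.93 and 8.54 on Wy14643, and C8b (-3.46), C6 (-2.66) and C9 (-2.60), which also build the terminal pore, fell with it. C1qa, C1qb and C1qc, which macrophages make and which are also among the Kupffer cell markers, fell by 0.60, 0.81 and 0.88 (C1qa was not called without WT_Wy replicate 3 or WT_control replicate 1) beside marker sums of 933 to 1197 against 1629 to 1891, whose part was not tested. Of 28 coagulation genes 15 fell and none rose (median -0.67), with F11 (-2.99) and F7 (-2.78) ahead of fibrinogen (Fga, -0.74) and prothrombin (F2, -0.61, or -0.58 and not called without WT_Wy replicate 1). Of 30 acute phase and carrier proteins 16 fell and 5 rose. Serum amyloid Saa1 (-4.27), the inhibitor heavy chain Itih4 (-2.42) and the orosomucoid Orm2 (-2.11) fell. Il1rn, the interleukin-1 receptor antagonist, was higher by at least 4.37 and the lipocalin Lcn2 rose by 2.04, and Alb gave -0.07. Of 20 serpins 8 fell. Serpina4-ps1 spread widely, from 9.70 to 11.57 on control food and at 3.01, 5.52, 6.90 and 5.01 on Wy14643, so that its difference of -5.35 ran from -4.65 without WT_Wy replicate 1 to -5.94 without WT_Wy replicate 3.

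Hormones and receptors of the liver changed in both directions, 4 up and 12 down of 29. The fasting hormone Fgf21 measured 2.62, 2.39, 2.77 and 3.28 before and 6.28, 6.44, 5.49 and 5.70 after (3.21 ± 0.20). Angptl4, an inhibitor of lipoprotein lipase, rose by 2.06, and the leptin receptor Lepr by at least 3.65. Angptl8 (-3.79) and Enho (-4.25), which encodes adropin, fell, as did Igf1 (-1.33), its binding partner Igfals (-1.61) and Igfbp3 (-0.90). Igfbp1 was not called, or only without WT_control replicate 1 or 4 (3.73 and 3.69), with 8.70, 5.84, 3.08 and 8.56 before and 8.55, 10.06, 8.73 and 10.92 after.

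Growth hormone and STAT5 responsive genes, many of them male-biased, fell in 11 of 26 and rose in none (median -0.71). The steroid dehydrogenase Hsd3b5, the largest decrease of all, measured 11.54, 11.14, 11.25 and 11.80 on control food and 3.28, 3.26, 6.13 and 2.98 on Wy14643. WT_Wy replicate 3, the array with pancreatic RNA, was the highest of its group, and the difference of -7.52 became -8.26 without it. Serpina12 (-4.69), the transporter Slco1a1 (-3.76), the hydroxylase Cyp7b1 (-1.40), the signal transducer Stat5b (-1.38) and the receptor Ghr (-1.26) fell too. The male-specific Cyp4a12a gave 0.47 and was not called.

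In the cytochrome P450 families 1 to 3, 19 of 40 genes fell and none rose (median -0.62), including Cyp2b10 (-2.64), Cyp1a2 (-2.08) and Cyp3a11 (-1.26), while Cyp2e1 gave -0.01. Conjugating enzymes fell in 19 of 48 and rose in 6. The sulfotransferases Sult1a1 (-3.27) and Sult5a1 (-3.24) and the methyltransferase Nnmt (-3.15) fell, and Ugt3a1 (2.50), the peroxisomal Gstk1 (0.89) and Gstt2 (1.71) rose. Of 20 aldehyde dehydrogenases Aldh3a2, which oxidizes fatty aldehydes, rose by 3.75 and Aldh9a1 by 0.62, and 4 fell. Of 35 genes of retinoids, alcohols and aldehyde oxidases 5 rose, among them Rdh16 (2.08), and 8 fell, among them Sdr9c7 (-4.99). Of 36 transporters 7 rose and 11 fell. All 7 but Slc22a27 (at least 0.34, not called without WT_Wy replicate 1) were of the ABC class, with the exporters Abcc4 (4.77) and Abcb1b (3.81) ahead. The uptake carriers Slc22a7 (-5.36), Slco1a4 (-4.76) and Slc10a1 (-1.08) fell, and so did ABC members such as the bile salt pump Abcb11 (-1.79). Of 21 carboxylesterases and other serum esterases 2 rose, Ces1d (1.23) and Ephx2 (0.93), and 4 fell. Bile acid synthesis fell in 7 of 15 genes and rose in none (median -0.83), with Akr1d1 at -2.85 and the receptor Fgfr4 at -2.06. Cyp7a1, its first enzyme, gave 1.0 with overlapping arrays. Lipoprotein genes rose in 2 of 27, the phospholipid transfer protein Pltp (4.30) and the assembly protein Mttp (1.13), and fell in 6, Apoa4 by 3.61. Over all genes 7.72% rose and 6.74% fell. The rises among lipoprotein, esterase and aldehyde dehydrogenase genes were near that share.

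The xenobiotic receptors themselves rose, Nr1i2 by 1.79 and Nr1i3 by 0.88, within a list of 26 nuclear receptors in which 4 rose and 6 fell. The estrogen receptor Esr1 fell by 2.52. The count of falls was 3 without WT_Wy replicate 2 or WT_Wy replicate 4. Of 25 hepatocyte transcription factors 2 rose and 5 fell, where 7.72% and 6.74% of all genes did. The falls ranged from 2 to 5 when 1 array was left out. They were 2 without WT_Wy replicate 4 or WT_control replicate 3, and 3 without WT_Wy replicate 1 or 2 or WT_control replicate 2 or 4. The rises were 1 without WT_Wy replicate 3 or WT_control replicate 1 or 2. Zonation markers fell on both sides of the lobule, 6 of 19 pericentral and 7 of 14 periportal genes, and none rose.

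DNA replication and cell division genes rose. Of 50 replication genes 28 rose and 1 fell (median 0.70). All 6 subunits of the MCM helicase rose, Mcm5 (4.64), Mcm6 (at least 4.23), Mcm2 (at least 3.20), Mcm4 (3.47), Mcm3 (3.33) and Mcm7 (1.86), and so did the loading factor Cdt1 (3.80). Mcm5 measured 2.92, 2.26, 2.32 and 2.66 before and 6.59, 7.19, 6.53 and 8.42 after, so the treated livers differed more among themselves than the controls. The 1 gene that fell, Mcm10, rested on 1 of 3 probe sets (-1.26), since the other 2 gave -0.26 and -0.09 at levels near background. Of 50 genes of cyclins and mitosis 23 rose and 1 fell (median 0.57). Nek2 (4.31), Ccnb2 (at least 3.07), the checkpoint gene Mad2l1 (3.43), Birc5 (at least 2.93), Cdk1 (2.33), Mki67 (at least 1.54) and Ccnd1 (1.74) rose, and Aurka (0.47, called at 0.69 without WT_Wy replicate 3), Plk1 (0.38) and Top2a (0.30) were not called. Genes of growth arrest and early response rose in 8 of 27, Gadd45b by at least 4.42, Ccng2 by 2.78, Myc by 2.40 and the cell cycle inhibitor Cdkn1a by 2.02. Gadd45b measured 7.69, 7.54, 7.10 and 4.33 in the treated arrays against 1.78 to 1.84 on control food, and its fitted difference of 4.86 was 5.64 without WT_Wy replicate 4.

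Chaperones divided by compartment. Cytosolic and mitochondrial heat shock genes rose in 9 of 25 and fell in none (median 0.41), with Hspb1 at 3.92 and Hspa1b at 2.93. Of 30 genes of folding in the endoplasmic reticulum 15 fell and none rose (median -0.60). The sensor Ern1 (-2.45), the chaperones Hyou1 (-1.68) and Hspa5 (-1.19), the isomerase Pdia6 (-1.45) and the transcription factor Xbp1 (-1.11) fell. Hspa5, also called BiP, measured 12.05, 11.82, 12.03 and 12.12 before and 10.51, 11.09, 11.13 and 10.55 after, with no overlap. Proteasome genes also parted. Of 37 subunits 9 rose, led by Psmd4 (1.46) and Psma5 (0.97), and the 3 that fell were the inducible catalytic subunits of the immunoproteasome, Psmb8 (-2.40), Psmb10 (-1.27) and Psmb9 (-0.93). Psmb8 measured 6.44, 6.58, 6.53 and 6.46 and then 4.08, 4.38, 3.95 and 4.02. Psmb9 lost its call without WT_Wy replicate 1, 2 or 3 or WT_control replicate 2, 3 or 4, at differences of -0.81 to -0.98. Interferon and antigen presentation genes fell in 13 of 35 and rose in none (median -0.62), with Ifi47 at -2.24, Stat2 at -1.16 and the class II genes H2-Aa (-0.98) and H2-Ab1 (-0.95), which Kupffer cells also express. The part of the lower macrophage markers in this was not tested.

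Metal handling changed with a few large members. Of 28 metallothioneins and members of the zinc transporter families, Mt1 (4.76), Mt2 (4.51) and the importer Slc39a5 rose and 7 fell. Among the falls were the Slc30 family members Slc30a10 (-2.59) and Slc30a1 (-0.94, or -0.30 and not called as the mean of its probe sets). Mt2 measured 4.87, 4.87, 4.16 and 4.63 before and 9.36, 9.19, 7.17 and 10.86 after. The lowest treated array was WT_Wy replicate 3, and without it the difference was 5.17. Iron and heme genes rose in 3 of 29 and fell in 7, where 7.72% and 6.74% of all genes did. The transferrin receptor Tfrc (1.11) rose, and Hamp (-1.27), Tmprss6 (-0.78) and the hemopexin gene Hpx (-0.67) fell. Alas2, the heme synthesis enzyme of red cell precursors, measured 8.93, 9.11, 9.01 and 9.22 and then 6.40, 6.90, 6.86 and 6.81. It is also the brightest of 5 erythroid markers and the only 1 called, and the median difference of the 5 was -0.08. They summed to 101 to 137 on Wy14643 and 503 to 610 on control food, sums made up mostly of Alas2. Of the 5, 3 were at background in both groups. Redox genes rose in 5 of 28 and fell in 4. Gpx7 was higher by at least 2.83 and Srxn1 by 1.58, and the glutathione synthesis subunits Gclc (-0.82) and Gclm (-0.86) fell. Of 38 lysosome and autophagy genes 7 rose and 3 fell, and 1 of 30 cytosolic ribosomal proteins was called. Over all genes 7.72% rose and 6.74% fell. The higher group mean exceeded 6 in 23 of the 28 redox genes and 31 of the 38 lysosome genes. Among all genes at 6 to 8 on that measure, 14.0% rose and 13.6% fell. Among 15 fetal and imprinted transcripts Peg3 rose by 4.5 and Afp by 1.64, and Meg3 fell by 4.01. The direction of Peg3 was shared by the 3 of its 5 probe sets that were called, and that of Meg3 by the 5 of 11.

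Of 20 circadian genes 2 rose and 3 fell in wild type, where 7.72% and 6.74% of all genes did. The rises were 1 without WT_Wy replicate 1 or 4 or WT_control replicate 4. Arntl, the positive limb of the clock also called Bmal1, measured 6.07, 4.09, 2.23 and 6.08 on control food and 1.90, 2.05, 1.46 and 1.65 on Wy14643. It fell by 2.85 (adjusted p = 0.00516), or at least 2.38, and lost its call without any 1 of the WT_Wy arrays or without WT_control replicate 1 or 4. Arntl was also not called by limma in the 8 wild-type arrays alone (adjusted p = 0.0178). Ciart measured 3.47, 3.39, 4.69 and 2.65 and then 5.27, 5.48, 5.69 and 5.69, an increase of 1.98, and Nfil3 fell by 2.08. Hlf rose by 0.62 and Bhlhe40 fell by 1.21. Hlf lost its call without WT_Wy replicate 1 or 4 or WT_control replicate 4, with array weights and with the offset. It was also not called by limma in the 8 wild-type arrays alone (adjusted p = 0.0195) or as the mean of its probe sets (0.45). In null liver the same food gave 3.16 for Ciart, which was called, -3.03 for Arntl (adjusted p = 0.111) and -1.37 for Nfil3 (adjusted p = 0.214). There Hlf gave 0.65 (adjusted p = 0.089 by limma), while Bhlhe40 went the other way from wild type, at 0.41 (adjusted p = 0.631). The interaction, which is the difference between the responses of the genotypes, was 0.18 for Arntl (adjusted p = 0.942) and -1.18 for Ciart (adjusted p = 0.0983). It called 1 of the 20 circadian genes, lower in wild type. The control arrays were not uniform. WT_control replicate 3 had Dbp at 10.08 and Usp2 at 7.30, where the other control arrays had 5.22 to 8.32 and 2.38 to 4.55. The sources used here do not give the hour at which the mice were killed, and its part in these values was not tested.

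In null liver 5 genes rose (0.0275%) and 0 fell (0%) by limma, with 964 higher and 917 lower at an unadjusted p under 0.05. All 5 also rose in wild type. Apart from Ciart they were Acaa1b (1.14), Aldh3a2 (1.16), the dienoyl-CoA isomerase Ech1 (0.78) and Acadl (0.66). For Acaa1b the interaction was 0.21 (adjusted p = 0.475), whereas Aldh3a2 (2.59), Ech1 (1.57) and Acadl (1.29) rose more in wild type. Over all genes the interaction called 979 higher (5.38%) and 841 lower (4.62%) in wild type. Of the 1405 genes that rose in wild type 927 were also called in the interaction in the same direction, and of the 1226 that fell 751 were. These 2 comparisons share the wild-type arrays. The median null difference was 0.03 over the genes that rose and -0.06 over those that fell, where the wild-type medians were 1.05 and -0.96. Cyp4a14 gave 1.95 in null liver (adjusted p = 0.495) and Acot3 1.44 (adjusted p = 0.0596), both short of the threshold, and Pdk4 gave -1.88 (adjusted p = 0.223).

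**Figure D5:**
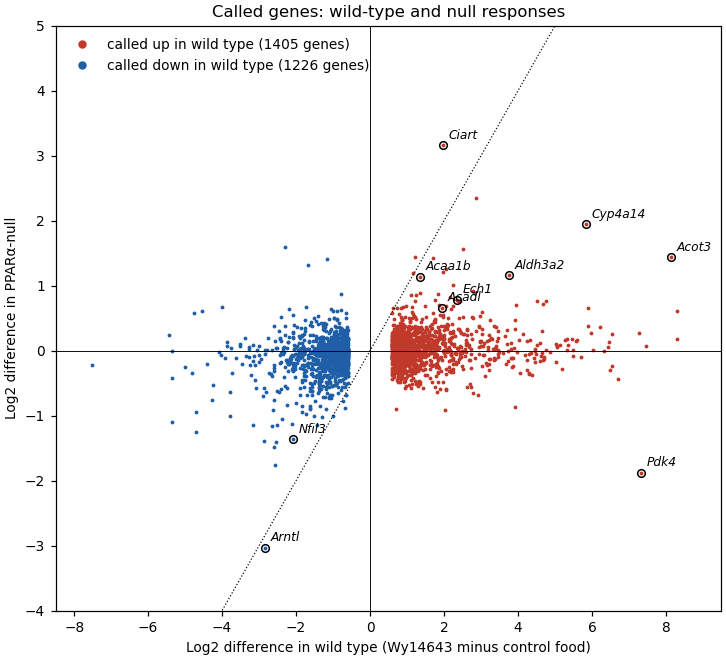
Log2 difference between the foods in PPARα-null liver (vertical axis) against that in wild type (horizontal axis) for the genes called up (red, 1405) or down (blue, 1226) in wild type, 1 point per gene, with a dotted line of equality. Most genes lay near 0 in null liver, and Ciart (3.16) and Arntl (-3.03) lay farthest from it.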

How the data were processed

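Liver RNA of 16 mice, 1 array per mouse, was measured on Affymetrix mouse genome arrays. The authors made the deposited values with GCRMA 2.20 (submitters' processing notes), which subtracts a background estimated from probe sequence, normalizes between arrays and summarizes probes. The deposited table holds linear intensity values, although log2 values had been assumed when the tests were planned, and log2 was taken without an offset. GCRMA compresses values near background, so folds that start there depend on it. Array medians were 2.15 to 2.24 on the log2 scale, and 4 arrays per group limit the precision. Whether RNA input to labelling was as the labels or the methods state is unsettled, since they differ.

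Of 45101 probe sets 64 controls were left out. The platform annotation gave 34945 probe sets 1 gene, 932 several and 9160 none, and 34741 of the first were matched to RefSeq by gene ID. limma 3.58.1 in R 4.3.3 fitted 1 mean per group over 16 arrays with empirical Bayes moderation, and the Benjamini-Hochberg adjustment covered all 45037 probe sets. Calls needed an adjusted p under 0.01 and a fold over 1.5. The interaction is the wild-type minus the null difference. Errors are SE from the fit. Scripts were tested on simulated data for the wild-type comparison over 45037 probe sets, with 50 changed at each fold, and recovered 64%, 78%, 90% and 100% at 1.8, 2, 3 and 4-fold with 3 false calls.

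Named were the 10 increases and 10 decreases of largest moderated t, the 6 brightest of each direction with a fold over 2, leading members of 57 pathway lists, genes called in both genotypes, the 4 with the largest SD on Wy14643, and Ppara. Further list members were named after their values were seen. The members and lists were chosen with earlier results of these data known. Of 1840 list entries 196 had no probe set, and 12 lists held cell type markers. Alternatives were filters on the mean level, median centring, quantile normalization, an offset, array weights, robust moderation, the wild-type arrays alone, a replicate block, a test against the fold, a looser threshold, the mean of a gene's probe sets, and each of the 8 wild-type arrays left out. Per-list counts without WT_Wy replicate 3, and the alternatives for null liver, were chosen after seeing the data. Python 3.11.15 with pandas 2.3.3 and matplotlib 3.10.9 was used for the rest.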

Additional observations from a re-analysis of the deposited data

Results flagged for a closer look

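Within some groups of 4 arrays a single array lay far from the other 3 by Dixon's criterion, which chance alone meets in about 1 in 20 groups. The criterion was applied to the WT_Wy and the WT_control arrays of every gene named in the text. Many cases are therefore due by chance alone. WT_Wy replicate 3 stood out in the pancreatic genes Cela2a (8.67), Prss2 (8.49), Ctrb1 (8.45) and Clps (7.90), and also in C8a (8.93), F7 (6.98), Hsd3b5 (6.13), Elovl7 (5.53) and C1qc (5.34). WT_Wy replicate 4 stood out in Ahsg (11.94), Slc10a1 (11.51), Asl (10.16), Apoa4 (9.87), G0s2 (9.66), Acot4 (9.27) and Prdm16 (1.78), replicate 2 of that group in Ehhadh (14.02) and replicate 1 in Acaca (8.94). WT_control replicate 4 stood out in Hamp (13.33), Aox3 (11.96), Atf4 (8.44), Slco1a4 (7.36), Cdkn1a (4.54) and Cyp4a14 (4.53). WT_control replicate 3 stood out in Ppargc1a (4.98), Nek2 (2.84) and Lyve1 (2.75), and WT_control replicate 1 in Acsf2 (4.42).

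The response differed between wild-type and null liver, by the interaction of limma, in 3170 probe sets. Among the genes of clearest increase the fitted wild-type minus null difference was 8.12 for Fabp3, 7.38 for Slc27a1, 7.15 for Lamb3, 7.01 for Mogat1, 6.77 for Slc39a5, 6.39 for Otop1, 6.32 for Amn, 6.28 for Bhlhb9, 5.70 for Krt23 and 5.43 for Pmm1, and most of these values depend on levels near background. Among the clearest decreases it was -5.69 for Cyp2c54, -4.46 for Aox3, -4.06 for Rdh5, -3.99 for Hsd11b1, -3.58 for BC052688, -3.38 for Cyp2c70, -3.17 for C8a, -3.06 for C1s1, -3.05 for Ces1c and -2.30 for Gpld1. Bright genes gave 2.96 for Ehhadh, 2.59 for Aldh3a2, 1.82 for Hsd17b11, 1.67 for Retsat, 1.57 for Ech1, 1.31 for Abcd3 and 1.29 for Acadl in one direction. In the other they gave -2.04 for Mup3, -1.47 for Gnmt, -1.21 for Cyp2d9, -1.18 for Hamp, -1.10 for Ahsg and -0.96 for Bhmt.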

How the results depend on the processing

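The 4801 probe sets called in wild type became 2417 (1082 up, 1335 down) at a mean level above 6, 3166 (1721 and 1445) with 16 added to the intensity, 1654 (997 and 657) when tested against a fold of 1.5, and 8991 (4492 and 4499) at an adjusted p under 0.05 with no fold. Above a mean level of 4, 1715 rose and 1920 fell. The 8 wild-type arrays alone gave 4482 calls (2399 up, 2083 down). The interaction, 3170, became 981 when tested against the fold and 5438 at the looser threshold, and null liver, 6, became 1, 32 and, with robust moderation, 20. Leaving out 1 wild-type array gave 4392 to 4631 calls, 2401 to 2576 up and 1946 to 2101 down, 2807 to 3057 for the interaction and 4 to 7 for null liver, and no null array was left out. Replicate numbers did not pair the samples, since the deviations of same-numbered arrays correlated at -0.002 to 0.120, and the replicate block called 4790. Over the 289 called genes named by rule or in the text, 5466 of 5654 recomputed values kept direction and call, 188 lost the call (80 of them in the test against the fold, the other 108 in 31 genes) and none changed direction. Scd1, Usp2, Igfbp1 and Aurka, not called, were called under some alternatives at the same threshold. Genes not called that changed sign had ranges, on leaving out 1 array, of -0.43 (without WT_Wy replicate 3) to 1.85 for Cela2a, -0.10 (without the same array, as for the next pair) to 2.14 for Clps, -0.093 to 2.33 for Ctrb1, -0.017 to 2.13 for Prss2, -0.029 to 0.023 for Cyp2e1, -0.14 to 0.055 for Dgat2, -0.17 to 0.082 for Ucp1, -0.017 to 0.069 for Cat, -0.024 to 0.17 for Prdm16 and -0.0044 to 0.44 for Fasn. Cyp2e1 gave 0.011 after centring and 0.075 after quantile normalization, and Ppargc1a 0.19 as the mean of its probe sets. The cause was not tested. Differences between levels below the array median could not be measured.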
